A study of Mus musculus with 10 samples.

Results

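Among lineage-labelled epithelial cells sorted from mouse lungs, 591 alveolar cells that carried transcripts of several interferon-inducible genes at once are described here. They were chosen on measured values. A cell was a member when its barcode had at least 1000 genes, at most 50000 UMIs and at most 15% mitochondrial UMIs, no UMI of the leukocyte gene Ptprc, at least 5 UMIs of the surfactant gene Sftpc, and at least 1 UMI of at least 3 of the 5 genes Iigp1, Ly6i, Il4i1, Zbp1 and Isg15. A UMI (unique molecular identifier) marks 1 captured RNA molecule. Of 42012 barcodes in 10 libraries, 32698 passed the quality limits and 28727 of those also passed the Ptprc and Sftpc limits (gated cells). The 591 members were 2.06% of the gated cells, and the 21174 gated cells with none of the 5 genes, 73.7% of the gate, were the comparison cells of their own library. Because the 5 genes, Sftpc and Ptprc made the choice, their levels are given as a description with no test.

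All mice carried Sftpc-CreERT2, a tamoxifen-activated Cre recombinase driven from the surfactant protein C locus, so that labelling began in alveolar type 2 (AT2) cells, and all received 3 doses of tamoxifen at 0.2 mg per gram body weight from 8 weeks of age. In Sftpc-CreERT2; Red2Kras lungs, RFP+ cells were mutant, whereas YFP+ cells from those lungs were wildtype; EpCAM+ cells of each colour were sorted 4 days or 2 weeks later, and each colour and time has 2 replicate libraries. Sftpc-CreERT2; R26R-Confetti lungs gave 1 RFP+ and 1 YFP+ library, both wildtype; their labels give no time, and the methods place them at 2 weeks. Each library pooled at least 2 lungs of mice of mixed background, and 6 of the 10 held cells of nearly 1 sex only (below). A replicate is thus a pool of lungs, and the RFP+ and YFP+ libraries of 1 replicate come from the same pool, so that p-values over libraries count a pool once per colour; the libraries were made on 2 days that the labels do not assign, so day cannot be told apart from group.

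Interferons are secreted proteins that warn neighbouring cells of infection or damage. Type I and type III interferons act through the kinases Jak1 and Tyk2 and lead to gene induction at interferon-stimulated response elements, to which Stat2 and Irf9 contribute, whereas interferon-gamma acts through Jak1 and Jak2 and on gamma-activated sites. Both routes raise overlapping sets of antiviral proteins, immunity-related GTPases and antigen presentation genes, and AT2 cells, which make surfactant and renew the alveolar epithelium, carry receptors for them.

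The members' 5 genes have different roles. Iigp1 is an immunity-related GTPase that acts on vacuoles of intracellular pathogens, Isg15 is a ubiquitin-like protein coupled to targets in interferon-treated cells, and Zbp1 senses Z-form nucleic acid. Il4i1 is a secreted amino acid oxidase and Ly6i a small membrane-anchored protein of the Ly6 family, whose close copies make its counts uncertain. The promoters below, the 250 bases before the transcription start in RefSeq's mouse GRCm38.p6 annotation, show where sequences of the kind that these factors bind lie in genes that carry the results: a rule gene (Isg15), a GTPase of the same family as Iigp1 that the rule did not use (Igtp), a guanylate-binding protein (Gbp2), an antiviral gene (Ifit1), the MHC class I light chain (B2m), and a rule gene and a chemokine without a match (Il4i1 and Ccl20). They are written 5′ to 3′ along the gene, and capitals mark matches to the core of an interferon-stimulated response element (GAAA, any 2 bases, GAAA; here the GAAA pair) on either strand, or of a gamma-activated site (TTCNNNGAA), which reads the same on both strands.
Isg15: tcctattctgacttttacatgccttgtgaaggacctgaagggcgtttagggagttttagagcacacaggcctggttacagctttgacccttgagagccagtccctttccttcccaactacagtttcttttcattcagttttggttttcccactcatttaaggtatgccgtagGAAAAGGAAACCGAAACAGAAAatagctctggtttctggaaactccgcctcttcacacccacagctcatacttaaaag
Igtp: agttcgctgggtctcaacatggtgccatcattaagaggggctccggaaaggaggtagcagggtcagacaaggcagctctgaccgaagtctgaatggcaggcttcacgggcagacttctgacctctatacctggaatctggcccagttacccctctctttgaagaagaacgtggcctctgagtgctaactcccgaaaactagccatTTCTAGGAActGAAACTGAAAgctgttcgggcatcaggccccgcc
Gbp2: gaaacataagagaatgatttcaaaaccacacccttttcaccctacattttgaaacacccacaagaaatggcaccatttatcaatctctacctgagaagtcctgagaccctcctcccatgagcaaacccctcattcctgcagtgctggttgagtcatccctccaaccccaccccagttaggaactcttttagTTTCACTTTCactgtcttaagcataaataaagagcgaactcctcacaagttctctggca
Ifit1: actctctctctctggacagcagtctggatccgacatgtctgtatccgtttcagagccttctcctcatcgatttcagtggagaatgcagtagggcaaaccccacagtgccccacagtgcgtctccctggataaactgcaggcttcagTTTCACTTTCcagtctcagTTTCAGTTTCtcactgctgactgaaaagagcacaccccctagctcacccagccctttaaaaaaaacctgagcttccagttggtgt
B2m: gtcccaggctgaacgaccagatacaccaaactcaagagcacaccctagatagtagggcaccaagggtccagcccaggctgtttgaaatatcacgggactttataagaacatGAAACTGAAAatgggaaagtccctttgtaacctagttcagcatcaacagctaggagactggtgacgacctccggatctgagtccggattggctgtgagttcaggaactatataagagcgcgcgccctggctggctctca
Il4i1: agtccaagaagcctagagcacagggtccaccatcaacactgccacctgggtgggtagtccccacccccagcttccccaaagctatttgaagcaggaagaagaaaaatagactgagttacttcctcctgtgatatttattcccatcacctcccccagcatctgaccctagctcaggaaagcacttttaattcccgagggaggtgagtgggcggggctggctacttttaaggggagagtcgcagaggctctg
Ccl20: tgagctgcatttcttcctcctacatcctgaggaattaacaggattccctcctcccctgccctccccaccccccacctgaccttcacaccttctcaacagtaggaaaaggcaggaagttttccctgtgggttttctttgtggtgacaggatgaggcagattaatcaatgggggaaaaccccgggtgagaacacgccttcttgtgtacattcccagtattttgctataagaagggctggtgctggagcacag

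The stretches lie at chr4:156200819-156201068 on the minus strand (Isg15), and on the plus strand at chr11:58199306-58199555 (Igtp), chr3:142620413-142620662 (Gbp2), chr19:34640639-34640888 (Ifit1), chr2:122147437-122147686 (B2m), chr7:44836038-44836287 (Il4i1) and chr1:83116516-83116765 (Ccl20). Isg15 held 3 overlapping matches to the GAAA pair that began 78, 72 and 66 bases before the start, and Igtp held 1 of them 34 bases before the start, preceded by a TTCNNNGAA match at 45 bases. Gbp2 held 1 match at 59 bases, Ifit1 2 matches at 104 and 85 bases, and B2m 1 match at 139 bases. Among the 27025 genes with a stretch of this length, 3.46% held the GAAA pair and 8.13% held TTCNNNGAA, and both motifs may overlap in 1 stretch. Of the 246 genes higher in members (test below) that had a promoter, 41 (16.7%) held the GAAA pair and 28 (11.4%) held TTCNNNGAA, against 1 (0.893%) and 5 (4.46%) of the 112 lower genes and 3.14% and 7.05% of the 8253 tested genes with a promoter. A match describes letters in this window and is not evidence of a bound site; Zbp1 and Ly6i were not matched in the promoter table.

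The libraries held 2144 to 6213 barcodes, 10742481 to 79927159 UMIs and 960 to 4267 gated cells. Median UMIs per gated cell were 15854 and 13787 in the 2-week RFP+ libraries and 3257 to 6715 in the other 8, and since the rule asks for detected genes, deeper cells could pass it more easily. Members had a median of 10526 UMIs against 4915.5 in comparison cells, so the counts of changed genes below are also given against comparison cells matched to members on UMIs, 1 to 1 within the library. A barcode was shared by more than 1 library in 239 cases, which included 5 members, and no barcode was a member in 2 libraries. The 2 replicates of a Red2Kras group differed in the sex of their mice: by cells with Xist or Y-linked UMIs, the female share was 82.6% and 84.8% in the RFP+ and YFP+ libraries of 4-day replicate 1, 35.0% and 26.2% in 2-week replicate 1, 0.0653% to 0.654% in replicate 2 of both times, and 100% in both Confetti libraries.

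Members were concentrated in a few lungs, and in those lungs both colours held them. The share of gated cells was 0.104% in Confetti RFP+ (4 of 3840 cells; exact 95% binomial interval 0.0284% to 0.266%) and 0.0493% in Confetti YFP+ (2 of 4053; 0.00598% to 0.178%). At 4 days it was 0.241% (9 of 3734; 0.110% to 0.457%) and 3.65% (35 of 960; 2.55% to 5.03%) in RFP+ replicates 1 and 2, and 0.348% (6 of 1724; 0.128% to 0.756%) and 4.54% (133 of 2929; 3.82% to 5.36%) in YFP+ replicates 1 and 2. At 2 weeks it was 5.98% (241 of 4027; 5.27% to 6.76%) and 0.951% (21 of 2209; 0.589% to 1.45%) in RFP+, and 3.16% (135 of 4267; 2.66% to 3.73%) and 0.508% (5 of 984; 0.165% to 1.18%) in YFP+. Replicate 2 was thus the high pool at 4 days and replicate 1 at 2 weeks, in mutant and wildtype cells alike, and these 4 libraries gave 544 of the 591 members (92.0%). Intervals cover counting error only.

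**Figure D1:**
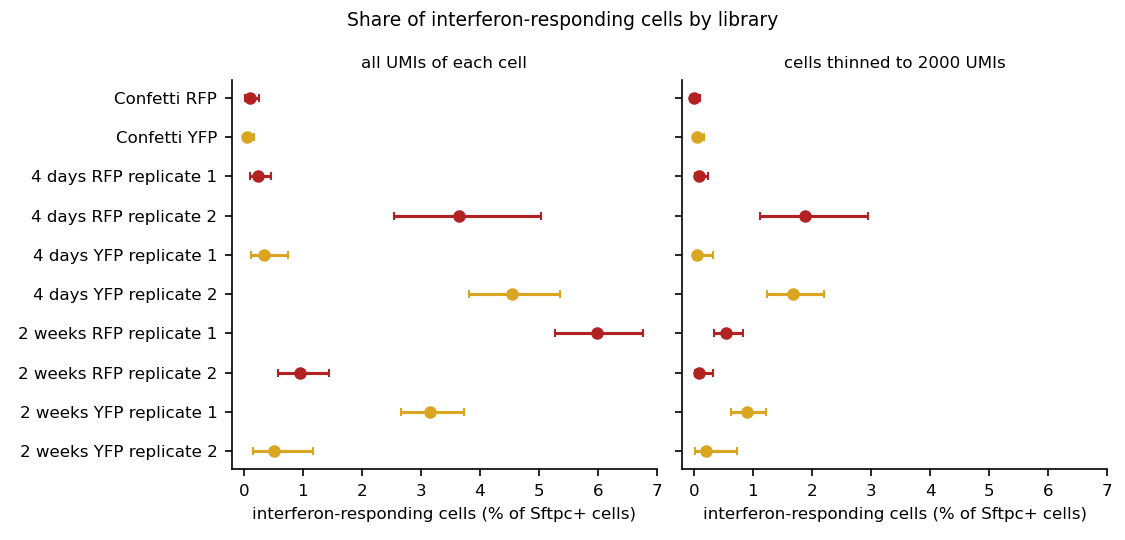
Share of gated cells that were members (x axis, percent) in each of the 10 libraries (y axis), with exact 95% binomial intervals, from all UMIs of each cell (left) and after thinning to 2000 UMIs (right); red stands for RFP+ and yellow for YFP+ libraries. On the left, the 4 libraries of 4-day replicate 2 and 2-week replicate 1 lie between 3.16% and 5.98%, and the other 6 between 0.0493% and 0.951%.

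Mutant and wildtype label did not separate the shares. The mean share was 2.71% ± 2.63 (SD, n = 4) in Red2Kras RFP+ and 2.14% ± 2.06 (SD, n = 4) in Red2Kras YFP+ libraries, a difference of 0.565 percentage points (two-sided exact permutation test, p = 0.743, adjusted p = 0.771 over 3 share comparisons; the smallest possible p is 0.0286). The mean was 2.65% ± 2.51 (SD, n = 4) at 2 weeks and 2.19% ± 2.22 (SD, n = 4) at 4 days, a difference of 0.458 points (exact permutation p = 0.771, adjusted p = 0.771). Red2Kras libraries averaged 2.42% ± 2.21 (SD, n = 8) and Confetti libraries 0.0768% ± 0.0388 (SD, n = 2), and each Red2Kras library was above each Confetti library in 16 of 16 pairs. That difference of 2.35 points gave an exact permutation p of 0.0444, the smallest that 8 against 2 libraries allow, and an adjusted p of 0.133. It was 0.653 points with cells thinned to 2000 UMIs (the same adjusted p), 0.821 with at least 4 and 7.66 with at least 2 of the 5 genes, and 1.06 with 3 of the 4 genes other than Ly6i. With at least 4 genes, Red2Kras was higher in 14 of 16 pairs (exact permutation p = 0.133, adjusted p = 0.4). Both Confetti libraries were female. Among cells with Xist and no Y-linked UMI, Confetti shares were 0.0904% (RFP+) and 0.0601% (YFP+), against 0.129% and 0.336% in the RFP+ and YFP+ libraries of 4-day replicate 1, and 4.17% and 1.02% in those of 2-week replicate 1.

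The order of the pools at each time remained after depth was made equal. With each cell thinned to 2000 UMIs, which left out 27 of the gated cells, 137 of 28700 cells met the rule. The thinned share was 1.88% and 1.67% in the RFP+ and YFP+ libraries of 4-day replicate 2 and 0.547% and 0.891% in those of 2-week replicate 1. In the other 6 libraries it lay between 0 and 0.203%, where the value of 0 in Confetti RFP+ (0 of 3838 cells) allows a share of up to 0.0782% (3 counts; the exact 95% interval reaches 0.0961%). At equal depth 2-week RFP+ replicate 1, the deepest library, went from the highest share to the lowest of these 4. The thinned shares of 2-week replicate 2 rested on 2 cells in each colour. Exact 95% intervals of the 2-week YFP+ replicates overlapped, at 0.632% to 1.22% and 0.0246% to 0.732%. Those of the RFP+ replicates were 0.343% to 0.827% and 0.0110% to 0.327%. In cells of the same library, members were also unevenly spread by sex: in 2-week RFP+ replicate 1, 47 of 1126 cells with Xist and no Y-linked UMI (4.17%; 3.08% to 5.51%) and 151 of 2092 cells with a Y-linked and no Xist UMI (7.22%; 6.15% to 8.41%) were members, at median depths of 14868 and 17421 UMIs. In the YFP+ library of the same lungs the shares were 1.02% (6 of 586; 0.377% to 2.22%) and 4.19% (69 of 1647; 3.27% to 5.27%), at 5278.5 and 6464 UMIs. Each sex in a pool may be 1 mouse, so mouse and sex cannot be told apart.

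Within the members, Ly6i was the most often detected rule gene (532 cells, 90.0%), followed by Isg15 (490, 82.9%), Zbp1 (392, 66.3%), Iigp1 (303, 51.3%) and Il4i1 (287, 48.6%). The commonest sets were Ly6i, Zbp1 and Isg15 (128 cells), Ly6i, Il4i1 and Isg15 (78) and the 4 genes other than Il4i1 (74), and 43 cells held all 5 genes. Just outside the rule stood 1486 cells with 2 of the genes (5.17% of the gate, median 9848.5 UMIs), and just inside it 403 cells with 3 (1.40%, median 11303 UMIs). Levels are given as CPM, a gene's UMIs divided by the summed UMIs of its arm and library and put on a common scale with edgeR's TMM factors. Ly6i stood at 1108 CPM in members of 4-day YFP+ replicate 2, at 968 in 2-week YFP+ replicate 1, at 822 in 4-day RFP+ replicate 2, at 348 in 2-week RFP+ replicate 1, and at 91.7 in 2-week RFP+ replicate 2. The last library was the one where Ly6i was found in 10 of 21 members, while Isg15 was found in 18 of them.

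Each rule gene was also read in cells that it had not helped to choose. Among cells with 3 or more of the other 4 genes, Iigp1 was detected in 38.9% (mean of 5 libraries; 27.4% to 48.3%) against 0.789% of cells with none of the other 4. Ly6i was detected in 72.3% against 15.7%, Zbp1 in 51.3% against 3.38%, Isg15 in 67.8% against 11.4%, and Il4i1 in 24.7% against 5.58%. Each of the 5 was higher in every library that could be read, 5 libraries for Iigp1, Ly6i, Zbp1 and Il4i1 and 4 for Isg15. These shares are a description, since the other rule genes chose the cells.

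Outside the rule, the response was broad. Members and comparison cells were compared in the 5 libraries with at least 10 members (565 members), by summing UMIs per gene, library and arm and applying edgeR's quasi-likelihood test with library as a covariate to 10445 genes. Of these, 319 genes (3.05%) were higher and 142 (1.36%) lower in members at adjusted p under 0.05, and 276 and 90 of them went the same way in all 5 libraries. Against UMI-matched comparison cells, 174 of 7087 tested genes (2.46%) were higher and 59 (0.833%) lower, and 164 of the higher and 41 of the lower genes were called in both fits. The 5 libraries came from 3 pools of lungs. With the RFP+ and YFP+ libraries of a pool summed, 297 of 11812 tested genes were higher and 152 lower, and 262 of the higher and 100 of the lower genes were called in both fits. The median log2 fold change over all 10445 genes was −0.05. A gene near 0 in comparison cells could pass the filter on low counts through the members alone, so the list counts below describe the genes that were measurable and are no set test.

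Igtp, an immunity-related GTPase (IRG) at chr11:58199556-58207591 that anchors interferon-inducible defence on membranes, was the marker outside the rule. It was found in 188 of the 591 members (31.8%) and in 1.90% of comparison cells. Its level in members was 39.6 CPM in 4-day RFP+ replicate 2, 84.3 in 4-day YFP+ replicate 2, 33.9 and 45.8 in 2-week RFP+ replicates 1 and 2, and 106 in 2-week YFP+ replicate 1, against 2.37 to 5.17 in comparison cells. The arms did not overlap, both YFP+ libraries were higher than the 3 RFP+ libraries, and the fitted log2 difference was 4.15 (SE 0.19, edgeR's quasi-likelihood test, adjusted p = 1.97e-10). All 6 tested IRG genes rose, with a median log2 fold change of 4.20, and 3 of 3 tested against matched cells did. F830016B08Rik rose most of all genes that the naming rule admits (8.22, SE 0.37; 32.0 ± 16.7 against 0.0823 ± 0.0831 CPM, n = 5), and Gm4951 rose by 5.50 (SE 0.43), Tgtp1 by 4.25 (SE 0.30) and Irgm1, which regulates the other IRG proteins, by 2.52 (SE 0.18). Members of this family are similar in sequence, and reads between Tgtp1 and Tgtp2 in particular may be split uncertainly.

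Guanylate-binding proteins are large GTPases that coat pathogen vacuoles. Of 10 such genes measured, 6 had enough counts for the test, and the filter could admit them through the members alone. All 6 rose, with a median of 5.57, as did 1 of 1 tested against matched cells, where 3.05% of all genes tested in the main fit were called higher. Gbp2 was at 101, 141, 42.2, 68.8 and 143 CPM in members of 4-day RFP+ replicate 2, 4-day YFP+ replicate 2, 2-week RFP+ replicates 1 and 2 and 2-week YFP+ replicate 1, and at 0.200 to 1.72 CPM in comparison cells (fitted log2 difference 6.73, SE 0.24, adjusted p = 2.19e-11). The arms did not overlap, but in 2-week RFP+ replicate 2 only 2 of 21 members held Gbp2, and 1 cell held 92.6% of the 27 UMIs, so the value of that library rests on 1 cell. Over all libraries 144 members (24.4%) held it, and 59 cells held 78.8% of its UMIs. Gbp5, which takes part in inflammasome activation, rose by 6.93 (SE 0.50), with 25.5 CPM in the mean of members against 0.191 ± 0.326 (SD, n = 5) in comparison cells, Gbp3 by 5.75 (SE 0.50) and Gbp7 by 3.82 (SE 0.32).

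**Figure D2:**
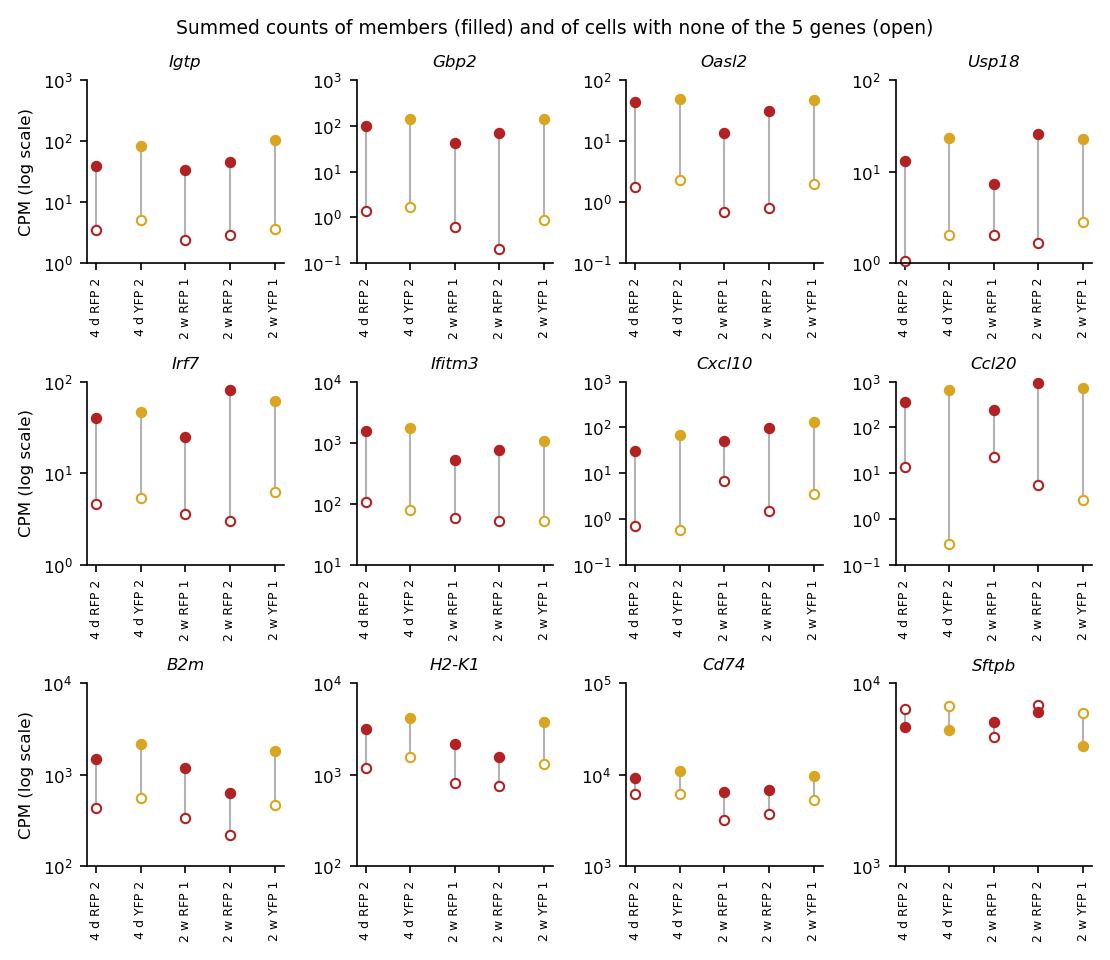
TMM-scaled CPM (y axis, log scale) of named genes in members (filled) and comparison cells (open) of the 5 libraries with at least 10 members, red for RFP+ and yellow for YFP+. Filled and open points stand apart for Igtp, at 33.9 to 106 against 2.37 to 5.17 CPM.

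Of 25 tested antiviral effectors, 24 rose and none fell, with a median of 2.95, and 16 of 17 rose against matched cells. Ifit1, which binds foreign RNA ends, was counted 137 times in members and 7 times in the far more numerous comparison cells of these libraries (8.04, SE 0.42, adjusted p = 7.74e-10). Ifit3 stood at 150 CPM in members of 2-week RFP+ replicate 2 and between 8.86 and 36.6 CPM in members of the other 4 libraries, against 0 to 1.35 CPM in comparison cells (7.38, SE 0.38). In the highest library, 7 of 21 members held it, 1 of them with 47.5% of its UMIs, and reads may be shared with the copy Ifit3b. Among membrane proteins, Ifitm3, which blocks viral fusion, went from 69.9 ± 23.9 to 1124 ± 511 CPM (3.94, SE 0.16) and Bst2, which tethers virions, from 126 ± 20.9 to 740 ± 282 CPM (2.46, SE 0.14). Ifi27l2a, a small mitochondrial and membrane protein gene, reached 1851 and 2156 CPM in members of the 4-day libraries, 949 in 2-week YFP+ replicate 1, and 209 and 71.3 in 2-week RFP+ replicates 1 and 2 (3.86, SE 0.15), with comparison cells between 3.75 and 171 CPM. Its level in members spanned a wider range across libraries than that of Ifitm3, which lay between 524 and 1731 CPM. Oasl2 (4.57, SE 0.24) and Rtp4 (3.51, SE 0.18) rose as well.

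No transcript of 8 listed interferon genes was found in the members, and other interferon genes were not counted. The 8 ligand genes listed (Ifng, Ifnb1, Ifna2, Ifna4, Ifnl2, Ifnl3, Ifnk and Ifne) had 0 UMIs among the 8362649 UMIs of the 591 members; 3 UMIs of Ifna2, 5 of Ifnk and 1 of Ifne were found in all comparison cells. Ifng, the product of T and NK cells, had 41 UMIs in the 32698 quality-passed cells and 0 in the gated cells. The 0 UMIs in members allow up to 0.359 CPM (3 counts, counting error only) for each ligand, and the cells that the EpCAM sort removed were not measured.

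Receptors for these ligands were present and changed little. Of 6 tested, 1 passed the test, as did 1 of 5 against matched cells. Ifngr2, a chain of the interferon-gamma receptor, was at 57.2, 59.9, 49.8, 58.6 and 42.0 CPM in members of 4-day RFP+ replicate 2, 4-day YFP+ replicate 2, 2-week RFP+ replicates 1 and 2 and 2-week YFP+ replicate 1, against 18.6 to 50.8 CPM (0.88, SE 0.18, adjusted p = 0.00756). The ranges of its levels overlapped between libraries, while each library was higher in its members. Ifngr1 had a log2 difference of 0.46 (SE 0.16), Ifnar2 of 0.48 (SE 0.14) and Il10rb, shared with the type III receptor, of 0.36 (SE 0.13), with adjusted p of 0.137, 0.0595 and 0.172. Ifnar1 had −0.25 (SE 0.21) and Ifnlr1 −0.30 (SE 0.35), and no call was made for any of these.

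Of 10 tested interferon signal transducers 5 rose, as did 5 of 9 against matched cells. Irf7, the amplifier of type I interferon production, was at 39.6, 46.6, 24.5, 81.5 and 61.2 CPM in members of 4-day RFP+ replicate 2, 4-day YFP+ replicate 2, 2-week RFP+ replicates 1 and 2 and 2-week YFP+ replicate 1, against 3.00 to 6.26 CPM in comparison cells, so that the arms did not overlap (3.34, SE 0.24, adjusted p = 5.52e-08). Stat2 rose by 1.37 (SE 0.21), Irf1 by 0.98 (SE 0.15) and Irf9 by 0.80 (SE 0.18). Irf2 stood at 0.43 (SE 0.14, adjusted p = 0.120) and did not pass. Among 6 feedback inhibitors, Usp18, which removes Isg15 and blocks the type I receptor, rose by 2.94 (SE 0.33) and Socs1 by 0.91 (SE 0.24), whereas Socs3 (−0.15, SE 0.11) and Ptpn2 (0.44, SE 0.16) did not pass. Against matched cells 0 of the 4 tested were called. Usp18 was not tested there, and Socs1 had 1.09 (edgeR's quasi-likelihood test, adjusted p = 0.0851).

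Nucleic acid sensors rose more modestly, 5 of 6 tested with a median of 1.11, and 2 of 3 against matched cells. Ddx58, which encodes the RNA sensor RIG-I, rose by 1.27 (SE 0.17) from 12.6 ± 2.54 to 29.7 ± 11.1 CPM, Tmem173, which encodes STING, by 1.13 (SE 0.19), Tlr3 by 1.09 (SE 0.23) and Ifih1 by 0.99 (SE 0.26). Tlr3 had the same difference of 1.09 against matched cells but did not pass there (adjusted p = 0.0811).

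All 4 tested chemokines of the interferon-inducible list rose, as did 2 of 2 against matched cells. Cxcl10, which attracts T cells through Cxcr3, was at 30.8, 66.6, 51.0, 96.8 and 130 CPM in members of 4-day RFP+ replicate 2, 4-day YFP+ replicate 2, 2-week RFP+ replicates 1 and 2 and 2-week YFP+ replicate 1, against 0.574 to 6.73 CPM (4.68, SE 0.40, adjusted p = 4.22e-07). The cells behind this level were few: 55 of 591 members (9.31%) held a Cxcl10 UMI, and 1 of them held 20.5% of the UMIs. Cxcl9, a chemokine mainly induced by interferon-gamma, was found in 4 members. Cxcl16 rose by 1.11 (SE 0.17), from 47.2 ± 11.6 to 104 ± 22.2 CPM, and Cx3cl1 by 1.19 (SE 0.31) in 4 of 5 libraries. The remaining tested gene, Ccl5, is also on the T and NK cell list below and was not tested against matched cells. Whether its UMIs came from lymphocyte RNA was not tested.

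Genes for presenting antigen on MHC class I rose nearly throughout, 18 of 19 tested, with a median of 1.93, and 17 of 18 against matched cells. B2m, the light chain, was at 1482, 2156, 1172, 634 and 1820 CPM in members of 4-day RFP+ replicate 2, 4-day YFP+ replicate 2, 2-week RFP+ replicates 1 and 2 and 2-week YFP+ replicate 1, against 429, 558, 338, 220 and 463 CPM in comparison cells of the same libraries (1.81, SE 0.09, adjusted p = 7.44e-10). It was detected in 585 of the 591 members, and members of every library exceeded every comparison value. The heavy chains H2-K1 (1.35, SE 0.09) and H2-D1 (1.16, SE 0.09) and, of the genes that supply peptides, Psmb9, an immunoproteasome subunit (2.67, SE 0.10; 308 ± 135 against 47.4 ± 19.4 CPM), and Tap1, a subunit of the peptide transporter (2.61, SE 0.14), were among the risers. Reads of similar class I genes may be split uncertainly. Of the class II genes, which AT2 cells express without stimulation, 9 of 10 rose, with a median of 1.13, and 8 of 8 against matched cells. Cd74, the invariant chain, was at 9092, 10974, 6441, 6744 and 9528 CPM in members against 6076, 6157, 3190, 3692 and 5283 CPM in comparison cells of the libraries in the same order (0.83, SE 0.08). H2-Eb1 rose by 1.25 (SE 0.12), H2-Ab1 by 1.13 (SE 0.09), H2-Aa by 0.94 (SE 0.11) and Ciita, the class II transactivator, by 1.26 (SE 0.18).

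**Figure D3:**
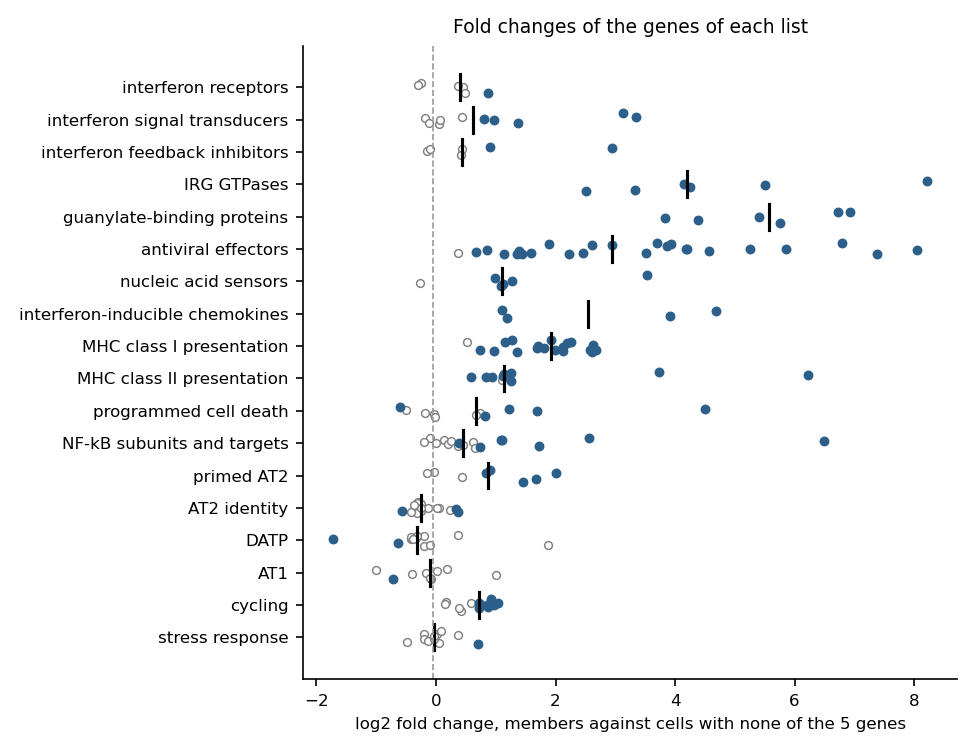
Log2 fold change of members against comparison cells (x axis) for the tested genes of each list (y axis); each point is a gene, filled blue where adjusted p was under 0.05, the black bar is the list median, and the dashed line is the median of all 10445 genes, −0.05. The median is 4.20 for IRG genes, 5.57 for guanylate-binding proteins and 1.93 for MHC class I, and −0.25 for AT2 identity.

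Among 3 tested genes of checkpoint ligands and amino acid catabolism, Lgals9, a galectin that binds T cell receptors of the Tim family, rose by 1.20 (SE 0.15), and Pvr (−0.34, SE 0.16) and Arg1 (0.17, SE 0.34) did not pass; 1 of 2 rose against matched cells. Of 11 programmed cell death genes, 4 rose and 1 fell. The death ligand Tnfsf10 rose by 4.51 (SE 0.39), Fas, the receptor of another ligand, by 1.68 (SE 0.29) and the necroptosis effector Mlkl by 1.22 (SE 0.31), and Bcl2l11 fell by 0.60 (SE 0.15). Against matched cells 1 of 8 was called, with a median of 0.04, and Tnfsf10 and Mlkl were not tested there. Of 17 NF-kB subunits and targets, 7 rose, with a median of 0.45, and 7 of 15 were called against matched cells. Nfkbia, the inhibitor that NF-kB induces, was at 193, 292, 280, 303 and 380 CPM in members against 140, 123, 273, 130 and 232 CPM in comparison cells of 4-day RFP+ replicate 2, 4-day YFP+ replicate 2, 2-week RFP+ replicates 1 and 2 and 2-week YFP+ replicate 1 (0.73, SE 0.15, adjusted p = 0.00615). Cxcl2 rose by 1.73 (SE 0.33), Nfkbie by 2.55 (SE 0.49) and Icam1 by 0.39 (SE 0.09), while Cxcl1 had 0.66 (SE 0.26, adjusted p = 0.215). Cxcl1 was called against matched cells (1.09, edgeR's quasi-likelihood test, adjusted p = 0.00507), where Nfkbie was not tested.

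A pair of the largest rises belonged to genes with very uneven expression among members. Ccl20, a chemokine that attracts Ccr6+ lymphocytes, was at 361, 658, 237, 912 and 723 CPM in members of 4-day RFP+ replicate 2, 4-day YFP+ replicate 2, 2-week RFP+ replicates 1 and 2 and 2-week YFP+ replicate 1, against 0.287 to 22.1 CPM (6.49, SE 0.66, adjusted p = 4.59e-06). It was detected in 103 of 591 members (17.4%), 59 cells held 97.6% of its UMIs, and in 2-week RFP+ replicate 2 a single cell held 99.4%, so the value of that library rests on 1 cell. AW112010, an interferon-inducible immune gene, was at 65.9, 368, 135, 260 and 446 CPM against 0.550 to 5.59 CPM (6.62, SE 0.47) and was detected in 161 members (27.2%). A single cell held 80% of its 15 UMIs in 4-day RFP+ replicate 2 and 65.7% of its 102 UMIs in 2-week RFP+ replicate 2.

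These genes followed the rule genes in different cells. Members with Iigp1 and no Il4i1 (176 cells) held 313 CPM of the IRG list (not scaled by TMM, pooled over libraries), 184 of guanylate-binding proteins and 217 of Ccl20. Members with Il4i1 and no Iigp1 (160 cells) held 44.9, 44.1 and 668 CPM. Members with both (127 cells) held 386, 345 and 533 CPM, and members with neither (128 cells) held 60.1, 26.5 and 12.1 CPM. The IRG list was higher in the Iigp1 set than in the Il4i1 set in each of the 5 libraries, as with 562 against 111 CPM in 2-week YFP+ replicate 1. Ccl20 was higher in the Il4i1 set in 4 of them, as with 1980 against 90.8 CPM in 4-day YFP+ replicate 2, and lower in 2-week RFP+ replicate 1 at 263 against 335 CPM. The Il4i1 set had 85 cells in that library, but 5 in 4-day RFP+ replicate 2 and 7 in 2-week RFP+ replicate 2. In the last of these, 1 cell held 99.4% of the members' Ccl20 UMIs. NF-kB subunits and targets stood at 2091 CPM in the Il4i1 set, 2492 with both, 1410 in the Iigp1 set and 1007 with neither. Ccl20 belongs to this list, and without it the sums were 1423, 1959, 1193 and 995 CPM. These sets were cut from the members after their values were seen and carry no test.

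Members were also described by the kinds of interferon-inducible genes they held. A UMI of an IRG or guanylate-binding protein gene, Iigp1 left out, was held by 415 members (70.2%), and a UMI of a list high mainly with type I interferon by 330 (55.8%); 260 held both, 155 the first alone, 70 the second alone and 106 neither. Among comparison cells matched on UMIs, 144 of 591 (24.4%) and 72 (12.2%) held them. All 8 tested genes of the list high mainly with type I interferon rose (median 4.38), as did all 8 tested genes of the list high mainly with interferon-gamma (median 2.83); against matched cells 2 of 2 and 4 of 5 did. The lists share their genes with those above and do not tell which ligand acted.

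The summed level of 54 interferon effector genes that the rule did not use rose with the number of rule genes in a cell. In 2-week RFP+ replicate 1 it was 759 CPM (not scaled by TMM) with none of the 5 genes, 1060 with 1, 1358 with 2, 2080 with 3, 3082 with 4 and 5898 with all 5. In 4-day YFP+ replicate 2 it was 1007, 1812, 3790, 5521, 7786 and 11783 CPM, and in 2-week YFP+ replicate 1 908, 1474, 2705, 4295, 6885 and 9836 CPM. The order was the same in 2-week RFP+ replicate 2, from 775 to 9810 CPM, and in 4-day RFP+ replicate 2 it held up to 4 genes (8637 CPM), where the 3 cells with 5 genes lay at 6877 CPM. Across libraries, cells with 2 genes lay at 1358 to 3790 CPM and cells with 3 genes at 2080 to 5521 CPM, so both sides of the limit overlap in level.

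**Figure D4:**
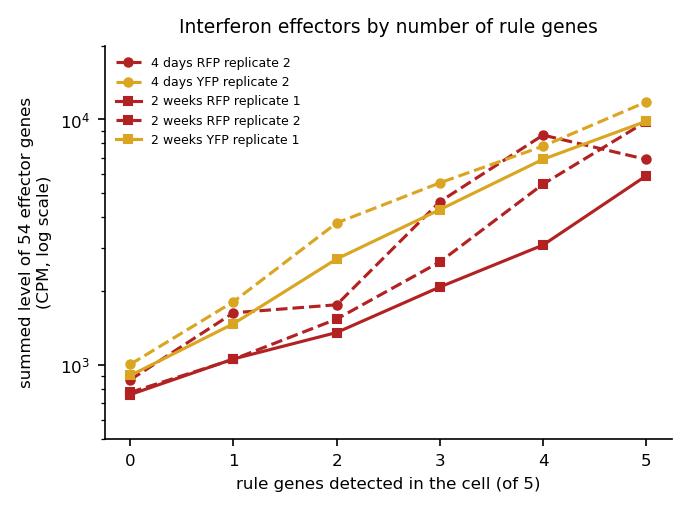
Summed CPM of 54 interferon effector genes outside the rule (y axis, log scale) by the number of the 5 rule genes detected in the cell (x axis), 1 line per library, red for RFP+ and yellow for YFP+, circles for 4 days and squares for 2 weeks, solid for replicate 1 and dashed for replicate 2. The values rise from 759 to 1007 CPM in cells with none to 5898 to 11783 CPM in cells with all 5.

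Few AT2 identity genes differed between members and comparison cells. The gate had asked both for at least 5 Sftpc UMIs, so cells that had lost Sftpc could not be in either. Of 15 AT2 identity genes outside the rule, 2 rose, 1 fell and 12 did not pass, with a median of −0.25. Sftpa1, a surfactant collectin, was at 37714, 46412, 28172, 20937 and 35540 CPM in members of 4-day RFP+ replicate 2, 4-day YFP+ replicate 2, 2-week RFP+ replicates 1 and 2 and 2-week YFP+ replicate 1, against 35848, 39719, 19083, 11648 and 32191 CPM (0.37, SE 0.10, adjusted p = 0.0364). Sftpd, the related collectin, rose by 0.34 (SE 0.09, adjusted p = 0.0490), Scd1, a fatty acid desaturase, fell by 0.56 (SE 0.12), and Sftpb, needed for surfactant film formation, had −0.25 (SE 0.10, adjusted p = 0.244). Against matched cells the median was −0.0032 and 1 of 15 was called, with Sftpd at adjusted p = 0.0563 and Scd1 at 0.380.

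Genes of primed AT2 cells, an inflammatory state of injured alveoli, were higher in members: 5 of 8 rose, with a median of 0.86, and 5 of 7 against matched cells. Lcn2, an iron-withholding defence protein, was at 10495, 10060, 8667, 6489 and 11382 CPM in members against 6440, 6442, 3495, 3666 and 5680 CPM in comparison cells, in the library order used above (0.90, SE 0.09, adjusted p = 5.45e-06). Retnla rose by 1.68 (SE 0.17), from 761 ± 334 to 2457 ± 1139 CPM, C3, the central complement protein, by 1.45 (SE 0.12), Saa3 by 2.00 (SE 0.35) and Orm1 by 0.83 (SE 0.18), whereas Lrg1 (−0.03, SE 0.13) and Hp (0.43, SE 0.15) did not pass. Hp was called against matched cells (0.61, edgeR's quasi-likelihood test, adjusted p = 0.00507), where Saa3 was not tested. Of 12 damage-associated transient progenitor (DATP) genes, 0 rose and 2 fell with both colours fitted together. Areg, a growth factor of the EGF family, fell by 0.64 (SE 0.13) and the integrin Itga2 by 1.72 (SE 0.27), whereas Krt8 had −0.20 (SE 0.11). Against matched cells 2 of 12 fell, Itga2 and the keratin Krt19 (−0.65), and Areg did not pass (adjusted p = 0.0516). The direction for Krt7, another keratin of the list, depended on colour: members and comparison cells stood at 158 and 311, 618 and 1122, and 746 and 1445 CPM in the RFP+ libraries (4-day replicate 2, 2-week replicates 1 and 2) and at 95.4 and 65.2, and 164 and 106 CPM in the YFP+ libraries (interaction −1.52, SE 0.16, adjusted p = 4.29e-05). The fall of Areg was also greater in RFP+ cells (interaction −0.79, SE 0.17, adjusted p = 0.0473). Of 9 tested AT1 genes 0 rose and Vegfa fell by 0.71 (SE 0.12), with Ager at −0.09 (SE 0.10); 0 of 8 were called against matched cells, where Vegfa had −0.55 (adjusted p = 0.0521).

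Cycling genes were higher against all comparison cells, 7 of 12 with a median of 0.72, but 0 of 12 were called against UMI-matched cells, where the median was 0.10. Birc5, a survivin gene of dividing cells, rose by 0.97 (SE 0.13) in the first comparison and Cdk1 by 0.87 (SE 0.12). A cycling gene was detected in 59.6% of members, 58.9% of matched cells and 32.3% of comparison cells, at median depths of 10526, 10516 and 4915.5 UMIs. Of 11 stress response genes, Hsph1 rose (0.70, SE 0.16) and none fell, and 1 of 11 rose against matched cells.

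The 10 largest falls that the naming rule admits (lower in all 5 libraries, at least 20 CPM in the mean of an arm) were smaller than the 10 largest rises. F3, tissue factor, which starts blood clotting, was at 17.6, 0, 66.6, 76.4 and 8.22 CPM in members of 4-day RFP+ replicate 2, 4-day YFP+ replicate 2, 2-week RFP+ replicates 1 and 2 and 2-week YFP+ replicate 1, against 71.5, 2.87, 305, 375 and 17.9 CPM in comparison cells. It was lower in each of the 5 libraries and its level was higher in RFP+ than in YFP+ cells (−2.11, SE 0.17, adjusted p = 2.61e-07). Bex2 fell by 1.62 (SE 0.22), Fam107b by 1.61 (SE 0.23), the thrombin receptor F2r by 1.57 (SE 0.24), the growth factor binding protein Igfbp6 by 1.30 (SE 0.20) and Cst8 by 1.21 (SE 0.21). Gpr137b (−1.15, SE 0.20), the phosphatase Dusp5 (−1.06, SE 0.23), Ccng2 (−0.97, SE 0.22) and the lysolipid transporter Mfsd2a (−0.97, SE 0.18) were the others. Fam107b, F2r, Gpr137b, Dusp5 and Ccng2 lost the call without 2-week RFP+ replicate 1, with adjusted p of 0.0881, 0.203, 0.0505, 0.383 and 0.199. Igfbp6 (−0.99, adjusted p = 0.0552) and Mfsd2a (−0.61, adjusted p = 0.125) lost it against matched cells.

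Markers of other cell types were found at low counts in many members and at high counts in few. A UMI of the airway secretory list was held by 44.7% of members and 47.7% of UMI-matched comparison cells, of the endothelial list by 32.7% and 29.4%, and of the myeloid list by 19.3% and 18.1%. Of the 591 members, 17 (2.88%) held at least 10 UMIs of a T and NK, B, myeloid, endothelial, mesenchymal or ciliated list or at least 100 UMIs of the airway secretory list, against 1.94% of gated cells, and leaving such cells out of both arms gave 349 higher and 176 lower genes. The T and NK list summed to 2.66 to 48.7 CPM in members and 0.347 to 7.09 CPM in comparison cells, with 8 of its 12 genes at 0 in members; its 1 tested gene, the chemokine Ccl5, rose by 3.91 (SE 0.67) in 4 of 5 libraries, and 565 members held no UMI of the list. The myeloid list lay at 15.2 to 1165 CPM against 42.8 to 90.0 CPM, and its highest value came from 1 member of 2-week RFP+ replicate 2 with 431 of that library's 440 UMIs. The endothelial list lay at 23.8 to 144 against 19.3 to 45.4 CPM, and its gene Plvap rose by 3.72 (SE 0.51). The B cell list lay at 34.4 to 60.6 against 27.7 to 51.9 CPM, the mesenchymal list at 0 to 0.952 against 0 to 12.0 CPM, and the ciliated list at 4.46 to 106 against 15.4 to 59.8 CPM. The part of lower amounts of such RNA in the values above was not tested.

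The difference between members and comparison cells depended on colour for 36 genes (0.345% of 10445), in an interaction test with edgeR's quasi-likelihood method, and was more negative in RFP+ cells for 34 of them. S100a6, a calcium-binding protein of activated epithelium, was at 1699, 7419 and 4392 CPM in comparison cells and 176, 1501 and 1434 CPM in members of the RFP+ libraries (4-day replicate 2, 2-week replicates 1 and 2), but at 36.7 and 390 CPM in comparison cells and 203 and 707 CPM in members of the YFP+ libraries (4-day replicate 2, 2-week replicate 1). Members were thus below mutant comparison cells and above wildtype ones, and their own levels in the 2 colours lay closer together (interaction −3.90, SE 0.37, adjusted p = 1.29e-05). Tnip3, which restrains NF-kB, had members and comparison cells at 8.79 and 7.01, 66.8 and 71.2, and 50.9 and 28.2 CPM in the RFP+ libraries and at 41.0 and 1.34, and 84.9 and 4.92 CPM in the YFP+ libraries (−4.19, SE 0.35, adjusted p = 3.45e-06). Cldn4, a tight junction protein (−3.76, SE 0.37), S100a14 (−2.12, SE 0.21) and Clu, a secreted chaperone (−1.57, SE 0.16), were next. With UMI-matched comparison cells 8 genes were called, and S100a6, S100a14, Cldn4 and Clu did not pass (adjusted p of 0.201, 0.261, 0.629 and 0.863).

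**Figure D5:**
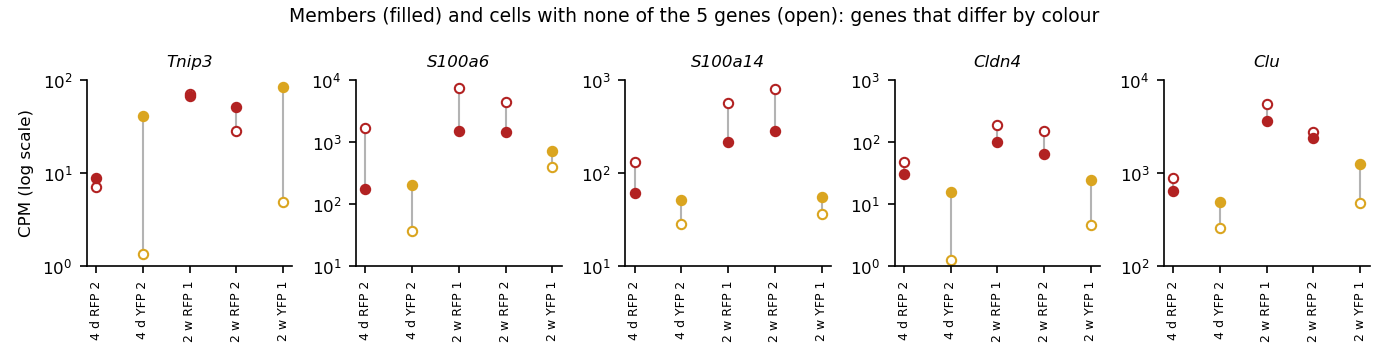
TMM-scaled CPM (y axis, log scale) of the 5 genes with the smallest p for a dependence on colour, in members (filled) and comparison cells (open) of RFP+ (red) and YFP+ (yellow) libraries. For S100a6, open points lie at 1699 to 7419 CPM in RFP+ and at 36.7 to 390 CPM in YFP+ libraries, and filled points at 176 to 1501 and at 203 to 707 CPM.

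Dependence on time was called for 4 genes (0.0383%), each with a more negative difference at 2 weeks: Scgb3a2 (−10.50, SE 0.64), Scgb1a1 (−7.32, SE 1.04), Aldh1a1 (−5.86, SE 0.86) and Arhgdig (−3.89, SE 0.61). In this fit both 4-day libraries came from 1 pool of lungs, replicate 2, and the 2-week libraries from 2 pools. Time thus cannot be told apart from pool, mouse or sex. Scgb1a1, the secretoglobin of airway club cells, was at 45080 CPM in members of 4-day YFP+ replicate 2 and at 27.8 to 92.3 CPM in the other 4, against 120 to 2066 CPM in comparison cells. The airway list of that library had 41044 UMIs, 21905 of them in 1 cell, and 3 of its 133 members passed 100 UMIs. Without this library the value of Scgb3a2 was 0.62 and 1 gene was called, and without cells holding other cell types' markers 0 genes were called (edgeR's quasi-likelihood test, 543 at unadjusted p under 0.05; DESeq2 on all cells called 1).

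The 26 members of the 5 libraries left out of the test held the same kind of transcripts. Summed over these cells, Igtp had 14 UMIs, 74.2 CPM (exact Poisson interval 40.6 to 125) against 2.85 CPM in comparison cells of the same libraries, Gbp2 143 CPM (94.4 to 208) against 0.879, B2m 1400 CPM (1236 to 1579) against 260.0 and Ccl20 281 CPM (211 to 368) against 2.10. Cxcl10 was at 10.6 CPM (1.28 to 38.3) against 2.08, from 2 UMIs, which overlaps at this depth. Intervals cover counting error, and no test was made between these libraries. Igtp was found in 0 of the 4 Confetti RFP+ and 0 of the 2 Confetti YFP+ members, so its UMIs here came from Red2Kras cells. Some of the 26 held other cell types' markers. In 4-day YFP+ replicate 1, 2 of 6 members held at least 10 endothelial UMIs, and 1 member held 106 mesenchymal UMIs. A member of 4-day RFP+ replicate 1 held 893 airway secretory UMIs, and 1 of 2-week YFP+ replicate 2 held 10 myeloid UMIs. The sums above include these cells.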

How the data were processed

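Single-cell RNA-seq (3' tags, 10x Genomics) was available for 10 libraries in 6 groups. The counts were deposited by the authors as UMIs per gene and cell barcode, made with Cell Ranger on mouse GRCm38 (version 3.1.0 in the methods and the submitters' processing notes, 5.0.1 in the file headers; the labels and the methods also name different 10x chemistries) and not normalized. The authors removed unwanted cell clusters afterwards in their own work; the matrices used here are from before that step, and all their barcodes were read.

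Cells were chosen with the limits given in the report, applied to raw counts. The members, the gene lists and the naming rule were chosen with earlier results of these data known. UMIs were summed per gene, library and arm (members, or cells with none of the 5 genes) and tested with edgeR 4.0.16 (R 4.3.3; TMM, filterByExpr, glmQLFit and glmQLFTest, library as covariate, Benjamini-Hochberg over all genes tested) in the 5 libraries with at least 10 cells in each arm. The 5 rule genes, Sftpc, Ptprc and mitochondrial genes were left out of the test. Interaction terms of arm with colour and with time were tested in the same way. Shares were compared over libraries with two-sided exact permutation tests (scipy 1.17.1), and binomial and Poisson intervals are exact, at 95%. Named genes were the 10 largest rises and 10 largest falls past adjusted p 0.05 with the same direction in every library and at least 20 CPM in 1 arm, up to 4 genes per list by level, the ligands and receptors, and the 5 interaction genes with the smallest p; genes of a list named beyond these were chosen after their values were seen. Some genes that count in their lists, and the allele of the RFP+ cells, are not reported here. List symbols not matched in the files were Gm12250, Gbp11, Mx2, Cgas, Cxcl11 and Ifi30.

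Replicate numbers pair samples: RFP+ and YFP+ libraries with the same number came from the same lungs, and the deviations of their gated cells from the group means correlated across 4628 genes (r = 0.861 at 4 days and 0.719 at 2 weeks; 0.177 and 0.464 between times in RFP+ and YFP+), so that a replicate block was also fitted. Doublets were scored with Scrublet (scanpy 1.11.5), whose own limit marked 41 cells (0.125%) and was not used; leaving out the top scores at 0.8% per 1000 cells, which included 19 members (3.21%) and 2.89% of gated cells, was an alternative. Other alternatives were DESeq2 1.42.0, no filter on low counts, UMI-matched comparison cells, thinning to 2000 UMIs, other numbers of rule genes, no Sftpc limit and leaving out each library. Using all 10 libraries, leaving out cells with other cell types' markers, summing both colours of a pool of lungs and leaving Ly6i out of the rule were added after seeing the data. The scripts were tested on simulated data.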

Additional observations from a re-analysis of the deposited data

Results flagged for a closer look

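Of 25 named genes tested for a library apart from the other 4 in its log2 ratio of members to comparison cells (CPM plus 1), 5 had one, where chance flags about 1 in 20. Oasl2 had a ratio of 3.13 in 2-week RFP+ replicate 1, below the others. F3 had −1.04 and Igfbp6 −1.99 in 2-week YFP+ replicate 1, and Cst8 had −4.27 and Ccng2 −4.69 in 4-day RFP+ replicate 2. The ratios of Cst8 and Ccng2 came from 0 UMIs in members, against 52 and 71 UMIs in comparison cells, so the added 1 CPM set their size.

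A difference between groups was called for 36 genes by colour and 4 genes by time (edgeR's quasi-likelihood test of the interaction). By colour the 5 with the smallest p were Tnip3 (−4.19, adjusted p = 3.45e-06), S100a6 (−3.90, adjusted p = 1.29e-05), S100a14 (−2.12, adjusted p = 1.29e-05), Cldn4 (−3.76, adjusted p = 1.29e-05) and Clu (−1.57, adjusted p = 1.80e-05), all with a more negative difference in RFP+ cells. The other 31 ran from Exoc3l4 (−6.86) to Spp1 (9.86) in log2 difference beside Scgb3a2 (−9.27), and Spp1 and Fosb (1.03) were the genes with a more positive difference in RFP+ cells. By time they were Scgb3a2 (−10.50, adjusted p = 3.15e-08), Scgb1a1 (−7.32, adjusted p = 0.00780), Aldh1a1 (−5.86, adjusted p = 0.00840) and Arhgdig (−3.89, adjusted p = 0.0144), each with a more negative difference at 2 weeks. Time cannot be told apart from pool here, since both 4-day libraries came from the same pool of lungs.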

How the results depend on the processing

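No share comparison passed adjusted p 0.05 in any setting run. The RFP+ minus YFP+ share difference turned to −0.0577 points when cells were thinned, and the 2-week minus 4-day difference to −0.489 when thinned and −0.0280 with at least 4 of 5 genes. Leaving out 1 library gave −0.528 to 1.39 and −0.653 to 1.24 points for these, both lowest without 2-week RFP+ replicate 1, and 1.84 to 2.66 for Red2Kras minus Confetti. With the replicate block the differences were 0.565 (exact sign-flip p = 0.750) and 0.458 (p = 0.875), where 4 pairs allow no p below 0.125, and the block changed no call.

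Against UMI-matched cells 174 genes were higher and 59 lower; 7087 genes remained to be tested there. The lower genes were 313 with no filter, 255 with all 10 libraries and 66 with DESeq2. The genes that depended on colour were 139 with no filter, 8 with matched cells, 58 without cells holding other cell types' markers, and 17 (without 4-day YFP+ replicate 2) to 107 (without 4-day RFP+ replicate 2) with 1 library left out, with 21 without 2-week RFP+ replicate 1 and 84 without 2-week RFP+ replicate 2. Those that depended on time were 95, 2 and 0 under the first 3 of these settings, 1 with DESeq2, and 1 (without 4-day YFP+ replicate 2) to 71 (without 2-week YFP+ replicate 1). Scgb3a2 ran from −11.66 (without 2-week YFP+ replicate 1) to 0.62 (without 4-day YFP+ replicate 2). The cause was not tested. With both colours of a pool summed, Cx3cl1, Hsph1, Icam1, Ifih1, Scd1 and Socs1 lost their calls (adjusted p of 0.0571, 0.0570, 0.0652, 0.137, 0.0570 and 0.105). Of 242 values of the 21 named genes of the member comparison under alternatives, 233 kept direction and call, 9 kept direction and lost the call, and 0 reversed. With few cells in an arm, genes under the filter on low counts were not tested, and a missing call there is limited by depth.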

Other observations

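Cells excluded from the gate because they held Ptprc UMIs met the same rule of 3 genes in 49 of 2099 cases (2.33%), at a median of 7720 UMIs against 5498 in gated cells. Zbp1 was detected in 22.2% and Isg15 in 25.3% of these cells, and Iigp1 in 1.38% and Ly6i in 5.81%, against 4.07%, 11.2%, 2.04% and 14.5% of gated cells. Across the 10 libraries the share of members had a Pearson r of 0.69 and a Spearman rho of 0.68 with the summed level of primed AT2 genes in gated cells, of −0.20 and 0.45 with the share of Ptprc+ cells, and of 0.49 and 0.72 with the median UMIs per gated cell, described without a test because replicates of both colours share lungs.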
